A study of Homo sapiens with 5 samples.

Results

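The peaks described here are SRSF9 eCLIP peaks that were listed only when ADAR2 was co-expressed and that passed a threshold in both libraries with ADAR2. They are the rows of the deposited peak table, outside the mitochondrial chromosome, that held 0 in both SRSF9-only columns and a log2 ratio above 2 in both columns of the condition with ADAR2. There were 6984 such peaks among 80514 rows of the table. The rule took them from 71920 ADAR2-only peaks outside the mitochondrial chromosome, of which they made up 9.71%. The members were thus selected on their values in all 4 libraries, so their height and their absence from the SRSF9-only columns are descriptions and not results. They are called the strong ADAR2-only peaks, and the other 64936 are called the remaining ADAR2-only peaks. The name refers to the rule and not to a rank. A mean of the libraries above 2 was found in 10940 ADAR2-only peaks, these 6984 included.

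The series mapped RNA bound by SRSF9 in HEK 293T, a human embryonic kidney cell line. In eCLIP, RNA is fragmented, recovered with the protein bound to it, transferred to a membrane, reverse transcribed and sequenced. Cells overexpressing SRSF9 alone gave 2 libraries, and cells overexpressing SRSF9 and ADAR2 gave 2 libraries. A single input library came from cells overexpressing both proteins. SRSF9 was thus overexpressed in every group, and no library came from cells at their own SRSF9 level. The labels name an antibody against SRSF9, whereas the extraction protocol names MYC beads. Whether libraries of 1 condition came from separate cultures is not said in the labels. Read depth is unknown, and the table gives no strand, gene or sequence, so the peaks are named by hg19 position, counted from 1.

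SRSF9 belongs to the serine/arginine-rich splicing factors, which bind short purine-rich elements in pre-mRNA and take part in the choice of splice sites. ADAR2 deaminates adenosine to inosine in double-stranded RNA, and inosine is read as guanosine when RNA is translated or reverse transcribed. Both proteins act mainly on nuclear transcripts, so they can meet the same introns and untranslated regions. The design text of the series names a repressive action of SRSF9 on ADAR2 targets as its subject.

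The strong ADAR2-only peaks had similar values in the libraries with ADAR2. In the first library the log2 ratio ran from 2.01 to 5.59 with a median of 2.46, and in the second from 2.003 to 4.65 with a median of 2.38. The order of these libraries is that of the columns, which carry no replicate name. Within a peak, the first minus the second had a median of 0.01 with quartiles of -0.31 and 0.39. The libraries differed by at most 0.5 in 4502 of the 6984 peaks, 64.5% (95% Wilson interval 63.3 to 65.6), and by at most 1 in 90.7% (90.0 to 91.4). These intervals, like all others given here for shares, cover counting error over peaks only, and neighbouring peaks are not independent. The absolute difference had a median of 0.33 in the strong and 0.42 in the remaining ADAR2-only peaks. The requirement that both values exceed 2 bounds how far they can part on the low side, so this contrast is a description.

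Few of the strong peaks lay far above the threshold. In both libraries 1849 exceeded 2.5, 519 exceeded 3, 107 exceeded 3.5 and 15 exceeded 4. The median of the lower of the values was 2.24. Of the ADAR2-only peaks, 6379 (8.87%) passed 2 in the first library alone and 4797 (6.67%) in the second alone. Of all ADAR2-only peaks above 2 in the first library, 52.3% were also above 2 in the second, against 16.4% over all ADAR2-only peaks. Of those above 2 in the second, 59.3% were above 2 in the first, against 18.6% over all. In the 6379 peaks above 2 only in the first library the second had a median of 1.58 (quartiles 1.06 and 1.65). In the 4797 peaks above 2 only in the second, the first had a median of 1.65 (1.24 and 1.65). Just inside the threshold was a peak at chr6:135369575-135369675, with 2.77 and 2.003, followed by peaks at chrX:71496810-71496835, with 2.23 and 2.004, and at chr3:58106986-58107079, with 2.017 and 2.008. Just outside were peaks with 1.999 in the second library, at chr16:89756872-89756917, at chr19:3576165-3576239 and at chr1:31441211-31441220. Their first-library values were 3.20, 2.92 and 2.62.

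The same rule applied to shared peaks, which are listed in both conditions, found 295 of 3751 with both values with ADAR2 above 2, or 7.86%. Among peaks listed only without ADAR2, 24 of 4742 exceeded 2 in both SRSF9-only libraries, or 0.506%, and among shared peaks 21 of 3751 did so in the SRSF9-only libraries, or 0.56%. The scale of the SRSF9-only libraries differs, with medians over shared regions of 0.96 and 0.20, against 1.31 and 1.04 in the libraries with ADAR2. A fixed threshold of 2 therefore does not select the same rank of peak in each condition.

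The strong peaks took few distinct values. Among the 6984 peaks the first library held 310 distinct values and the second 268. In both libraries the commonest values were spaced as the log2 of whole numbers plus 1 constant per library, 0.069 in the first and 0.060 in the second. On this reading the value 2.07 in the first library stands for the whole number 4, 2.39 for 5, 2.65 for 6, 2.88 for 7 and 3.07 for 8, and the numbers are fixed only up to a common factor. In the first library 1605 strong peaks sat at 4, 1168 at 5, 805 at 6, 518 at 7 and 349 at 8. In the second library the corresponding numbers were 1673, 1238, 794, 514 and 370. What the whole numbers count is not stated in the table.

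Of the strong peaks, 4592 lay on such a whole-number step in both libraries within 0.001, which is 65.8% (64.6 to 66.9). Among the remaining ADAR2-only peaks 14.1% (13.8 to 14.3) did. The rule used these values, so the contrast is a description. A further 1048 strong peaks could be written with a common denominator of 2 and 453 with 3, and 387 with no denominator up to 10. The commonest pair of values was 2.07 and 2.06, the step of 4 in both libraries, held by 534 peaks. In 3429 strong peaks, 49.1%, both values stood on a step from 4 to 8. The step of 4 lies just above the threshold of 2, and 2744 strong peaks, 39.3% (38.2 to 40.4), stood on it in at least 1 library. With 2.1 in place of 2 as the threshold, a value chosen after the data were examined, 4176 peaks would remain.

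**Figure D1:**
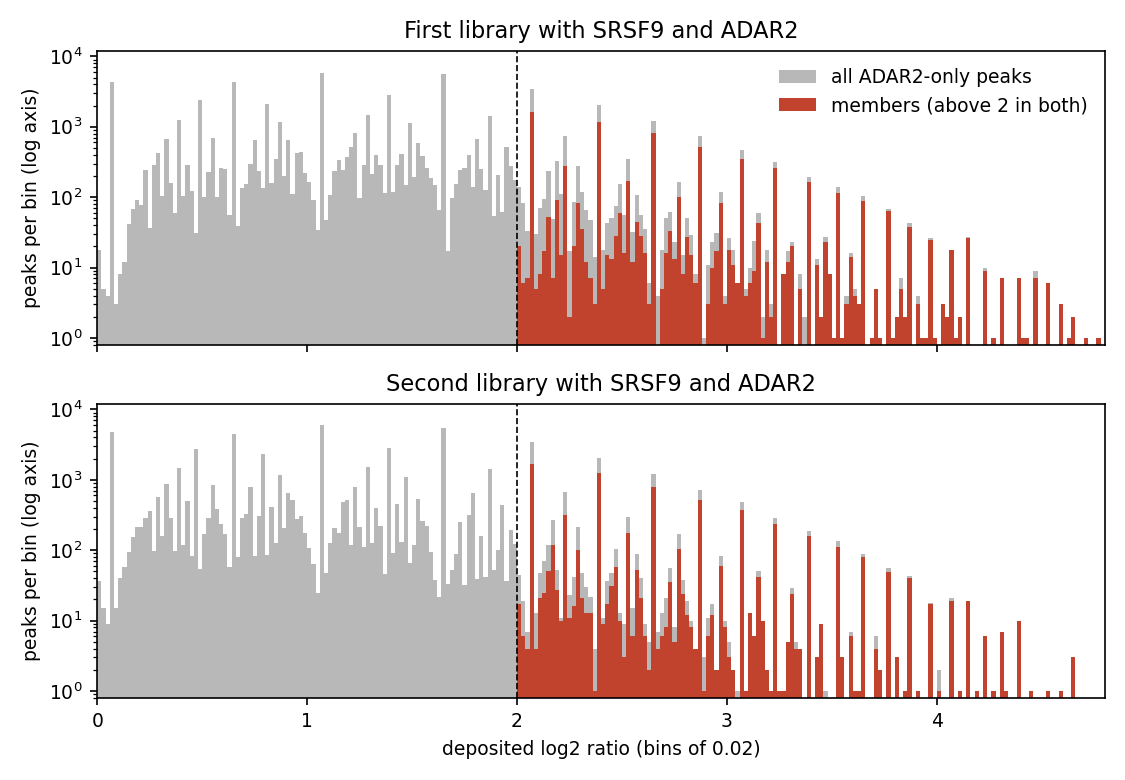
Number of ADAR2-only peaks per bin of 0.02 (log axis) against the deposited log2 ratio, for the first library (top) and the second (bottom), with all ADAR2-only peaks in grey, the strong peaks in red and the threshold of 2 dashed; values below 0 are not drawn. The tallest red spikes are the whole-number steps from 4 to 8, of which the step of 4, just right of the threshold, holds 1605 and 1673 strong peaks. Lower spikes stand between the steps, such as the bin at 2.23 with 279 and 320.

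The highest strong peaks, ranked by the lower of their values, were spread over 9 chromosomes and were all wider than the median. At the top was a peak of 101 nt at chr8:125486272-125486372, with 4.65 in each library. The next lay at chr19:55795459-55795506, with 4.24 and 4.38, and at chr1:156022917-156023053, with 4.53 and 4.23. The peak at chr3:40498992-40499042 had 5.26 and 4.19, the widest spread among the 10 highest. At chr12:121775539-121775592 the values were 4.16 and 4.38, and at chr3:101295394-101295443 they were 4.42 and 4.15. In 8 of the 10 highest peaks the libraries differed by at most 0.5, and the widths ran from 48 to 137 nt.

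The other members of the 10 highest were at chr5:32157345-32157413, with 4.07 and 4.38, at chr22:17627121-17627215, with 4.07 and 4.15, at chr11:8121446-8121511, with 4.71 and 4.06, and at chr2:134920752-134920839, with 4.32 and 4.06. Some of the highest peaks lay next to peaks listed without ADAR2. The peak on chromosome 3 from 101295394 was 7 nt from such a peak, the one on chromosome 22 was 77 nt away and the one on chromosome 12 was 346 nt away. The other 7 had none within 1 kb, and for the top peak on chromosome 8 the nearest was 628236 nt away.

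The largest disagreements between libraries were on chromosome 1. The peak from 164577058 to 164577097 had 2.07 in the first library and 4.58 in the second. The peak from 52861790 to 52861818 had 4.53 and 2.06. In each the lower value stood on the step of 4. Differences above 1.5 occurred in 108 strong peaks, or 1.55%.

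Strong ADAR2-only peaks were slightly wider than the remaining ones. The median was 38 nt (quartiles 24 and 52) for strong peaks, 33 nt (20 and 48) for the remaining ADAR2-only peaks, 51 nt (33 and 74) for shared peaks and 32 nt (19 and 46) for peaks listed only without ADAR2. Width rose along the level of the lower value, with medians of 30 nt at 0 or below, 33 nt from 0 to 1, 35 nt from 1 to 2, 38 nt from 2 to 3 and 47 nt above 3. Peaks narrower than 10 nt made up 6.37% (5.82 to 6.97) of the strong peaks and 9.18% (8.96 to 9.41) of the remaining ones. Peaks of 100 nt or more were 1.73% (1.45 to 2.07) and 1.82% (1.72 to 1.92), intervals that overlap. Since each condition has a single peak set, no replicate error can be given for these shares, and none was tested.

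Width moved with the steps of the values. The 4592 strong peaks on a whole-number step in both libraries had a median width of 34 nt (95% interval 33 to 35), and the other 2392 had 48 nt (47 to 49). Those that needed a denominator of 2 or 3 had a median of 44 nt, those that needed 4 to 10 had 52.5 nt, and those with none up to 10 had 60 nt. Among the remaining ADAR2-only peaks the medians on and off the steps were 26 and 35 nt. Within each class of step the strong peaks were thus 8 nt and 13 nt wider at the median than the remaining ones, against 5 nt over all. The classes are drawn from the values that chose the strong peaks, so these gaps are a description. Off the steps the classes also differ in make-up. No denominator up to 10 was found for 5.54% of all strong peaks and 28.5% of all remaining ones. The part of the steps in the width was not tested.

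The widest strong peaks were not the highest. The widest had 233 nt, at chr17:48796970-48797202, with 2.31 and 2.01. Next came chr3:58419200-58419412, with 2.37 and 2.20, and chr2:40006162-40006369, with 2.84 and 3.13. The next were at chr6:100016275-100016480, with 2.05 and 2.16, and at chr14:70233872-70234042, with 2.44 and 2.62.

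Over all strong peaks, somewhat fewer than among the remaining ADAR2-only peaks had a peak listed without ADAR2 nearby. Within 1 kb it was 628 of 6984, 8.99% (8.34 to 9.69), against 10.4% (10.2 to 10.6). Within 100 nt it was 1.89% (1.60 to 2.24) against 2.53% (2.41 to 2.65), and within 10 kb 28.1% (27.1 to 29.2) against 30.9% (30.6 to 31.3). Shared peaks lay within 1 kb of 4.48% of the strong and 5.45% of the remaining peaks, and peaks listed only without ADAR2 within 1 kb of 5.47% and 6.36%.

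That order was the opposite within each class of step. The classes are drawn from the same values that chose the strong peaks, and within a class the levels still differ: on a whole-number step in both libraries the median lower value was 2.38 for strong and 1.07 for remaining peaks. On a whole-number step in both libraries, 5.27% (4.66 to 5.95) of the strong peaks and 3.26% (2.92 to 3.65) of the remaining ones had a peak listed without ADAR2 within 1 kb. Off those steps the shares were 16.1% (14.7 to 17.7) and 11.6% (11.3 to 11.9). The strong peaks had the higher share in each class and the lower share over all because 65.8% of them, against 14.1% of the remaining ones, stood in the class with few such neighbours. The share also grew with the level within the strong peaks, from 8.62% (7.96 to 9.32) at lower values of 2 to 3 to 13.7% (10.99 to 16.9) above 3. Among the remaining peaks the share was 9.80% at 0 or below, 10.3% from 0 to 1 and 10.7% from 1 to 2. It thus did not rise steadily over the whole range of levels. Above 2.1 in both libraries it was 11.6% (10.6 to 12.6), against 10.2% over the other ADAR2-only peaks. For peaks above 2 in the second library, whatever the first, it was 7.91%, against 10.7% in the others. For peaks above 2 in the first it was 10.99% against 10.1%, so the order over all peaks also turned with the library used.

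**Figure D2:**
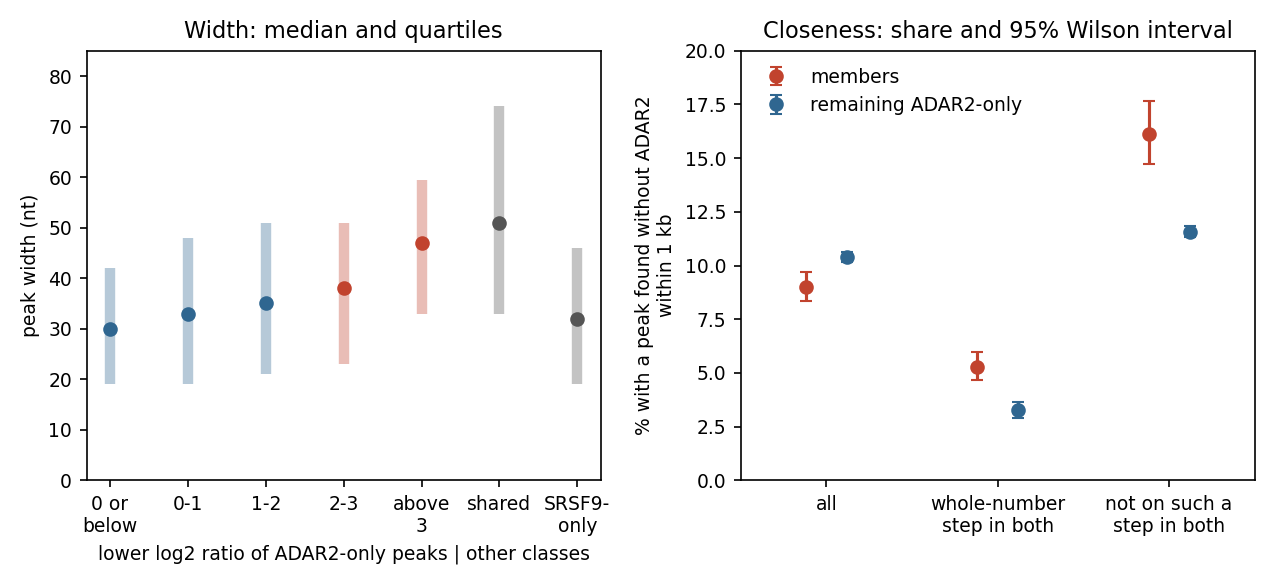
Left, peak width in nt (median as a point, quartiles as a bar) for ADAR2-only peaks by the lower of their log2 ratios, with the strong peaks in red, and for shared and SRSF9-only peaks in grey; the median rises from 30 to 47 nt. Right, percent of peaks with a peak listed without ADAR2 within 1 kb (95% Wilson interval), where the strong peaks in red are below the remaining ones in blue over all (8.99% and 10.4%) and above them in each class of step.

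The strong peaks nearest to a peak listed only without ADAR2 touched it or lay up to 3 nt away. On chromosome 19 the strong peak from 47248171 to 47248194, with 2.39 and 2.23, touched a peak from 47248150 to 47248170 with -0.08 and -0.31 in the SRSF9-only libraries. On chromosome 7 the peak from 141449891 to 141449918, with 3.01 and 2.76, touched one from 141449824 to 141449890 with 1.66 and 0.67. On chromosome 11 the peak from 85968615 to 85968619, with 2.07 and 2.06, lay 1 nt from a peak with 1.98 and 0.25. On chromosome 13 the peak from 98671838 to 98671851, with 3.07 and 2.38, lay 2 nt from one with 1.14 and 0.01, and on chromosome 9 the peak from 103115026 to 103115086, with 2.02 and 2.06, lay 3 nt from one with 2.46 and 0.30. At these sites the table thus lists a peak in each condition, side by side. The label of a peak as seen only with ADAR2 holds for its own interval and not for the positions beside it. No strand is given, so whether both peaks lie on the same RNA is unknown.

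Peaks beside the strong ones gave values in the SRSF9-only libraries, which the rule used only where they were 0. Of 3615 shared regions, counted by distinct coordinates, 349 had a strong ADAR2-only peak within 1 kb. Their medians were 1.01 and 0.20 in the SRSF9-only libraries and 1.51 and 1.23 with ADAR2. The 1981 shared regions with a remaining ADAR2-only peak but no strong one within 1 kb had medians of 0.85 and 0.18 in the former and of 1.31 and 0.99 in the latter. The 1285 with no ADAR2-only peak within 1 kb had medians of 1.07 and 0.25, and of 1.29 and 1.06.

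The difference, with ADAR2 minus without, had a median of 0.84 (quartiles 0.19 and 1.57) beside strong peaks, 0.65 (0.00 and 1.31) beside remaining ones and 0.53 (-0.07 and 1.18) elsewhere, against 0.63 over all shared regions. Both libraries with ADAR2 exceeded both without it in 207 of the 349 regions beside strong peaks, 59.3% (54.1 to 64.3), in 50.9% (48.7 to 53.1) beside remaining peaks and in 46.9% (44.2 to 49.7) elsewhere. The values with ADAR2 come from the libraries that chose the strong peaks. In the SRSF9-only libraries alone the medians of the 3 sets of regions ran from 0.85 to 1.07 in the first library and from 0.18 to 0.25 in the second, and those beside strong peaks were in the middle. The 385 peaks listed only without ADAR2 that had a strong peak within 1 kb had medians of 1.24 and 0.30, and all 4742 such peaks had 1.24 and 0.28.

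Strong peaks had other strong peaks close by more often than the remaining peaks did. Of the 6984, 316 had another strong peak within 100 nt, 4.52% (4.06 to 5.04), 890 within 1 kb, 12.7% (11.98 to 13.5), and 2559 within 10 kb, 36.6% (35.5 to 37.8). Of the remaining ADAR2-only peaks, 1.18%, 7.41% and 30.7% had a strong peak within these distances. Any ADAR2-only peak lay within 1 kb of 52.1% (50.9 to 53.3) of the strong and 51.3% (50.9 to 51.7) of the remaining peaks. Split by step, the shares were 43.7% (42.3 to 45.1) and 34.4% (33.4 to 35.4) on a whole-number step in both libraries. Off it they were 68.3% (66.4 to 70.1) and 54.1% (53.7 to 54.5). The split uses the values that chose the strong peaks and is a description.

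Where the nearest ADAR2-only peak was strong and lay within 20 nt, 69 of 134 peaks, 51.5% (43.1 to 59.8), were strong themselves. At 21 to 100 nt the share was 26.7% (23.8 to 29.7), at 101 to 1000 nt 12.9% (11.7 to 14.2) and beyond 10 kb 12.1% (9.93 to 14.6). Where the nearest was a remaining peak the shares were 4.22%, 7.94%, 9.67% and 10.6%.

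Neighbours at short distance often carried the identical value in a library. Of 133 strong peaks with an ADAR2-only neighbour within 20 nt, 123 shared its exact value in at least 1 library, 92.5% (86.7 to 95.9), and 10 in both. At 21 to 100 nt it was 308 of 878, 35.1% (31.99 to 38.3), and beyond 10 kb it was 6.53% (4.98 to 8.53). Over all ADAR2-only peaks the shares at these distances were 94.97%, 40.7% and 10.7%. With neighbours of any level, values identical in at least 1 library were thus no more frequent in strong peaks than in ADAR2-only peaks as a whole. For strong peaks whose nearest neighbour was also strong, the shares were higher, with 97.1%, 57.5% and 33.3% at these distances. Such pairs were chosen on the same values, so this is a description. Some rows thus repeat 1 library's value over adjacent intervals. On chromosome 19, for example, the peaks from 50168074 to 50168081, from 50168138 to 50168177 and from 50168316 to 50168354 all had 3.92 in the first library and had 2.55, 2.72 and 2.999 in the second.

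With neighbours that shared a value left out, the share of strong peaks next to a strong peak was 17.5% (14.6 to 20.9) at 21 to 100 nt, against 9.87% (9.05 to 10.7) next to a remaining peak. At 101 to 1000 nt the shares were 10.8% (9.65 to 12.1) and 10.1% (9.68 to 10.5), with overlapping intervals, and beyond 10 kb they were 8.68% and 11.6%. This removed like pairs at every distance. Within 20 nt 83 peaks were left, 10 of them next to a strong peak, too few to compare.

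**Figure D3:**
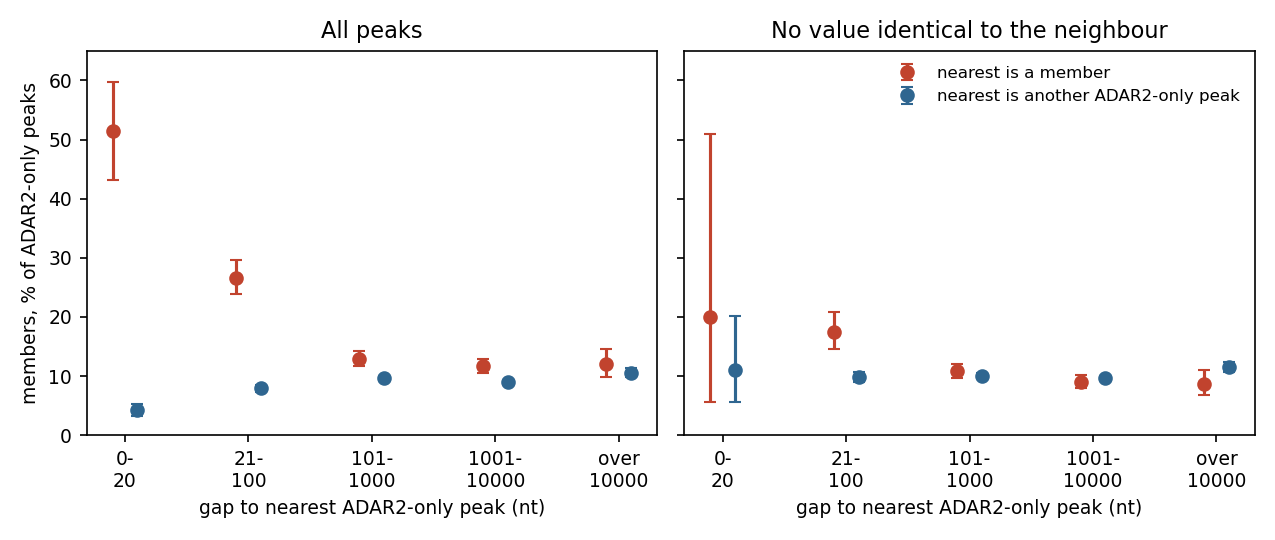
Percent of ADAR2-only peaks that are strong (95% Wilson interval) by the gap in nt to the nearest ADAR2-only peak, in red where that neighbour is strong and in blue where it is not; left, all peaks, and right, peaks with no value identical to the neighbour's. At 0 to 20 nt the red point falls from 69 strong peaks of 134 to 2 of 10.

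The strong peaks were found on every autosome and on chromosome X at similar rates. Their share of the ADAR2-only peaks ran from 8.15% (6.67 to 9.92) on chromosome 21 to 11.4% (9.58 to 13.6) on chromosome 18. The interval held the overall 9.71% on 21 of 23 chromosomes, and lay below it on chromosomes 16, with 8.57% (7.67 to 9.57), and 17, with 8.73% (7.92 to 9.62). Chromosome 1 held most strong peaks, 788, and its share was 9.12% (8.53 to 9.75). Chromosome Y had 2 ADAR2-only peaks and no strong one. The median lower value ran from 2.21 on chromosome 6 to 2.38 on chromosomes 5, 19 and 21.

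**Figure D4:**
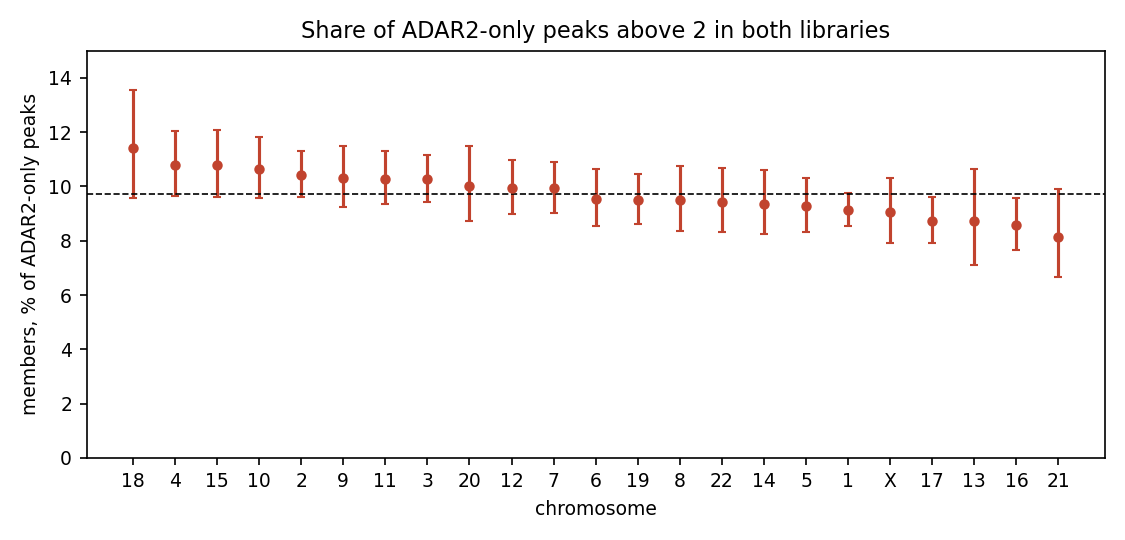
Strong peaks as a percent of the ADAR2-only peaks on each chromosome (points, 95% Wilson interval), ordered from highest to lowest, with the overall 9.71% dashed and chromosome Y left out. Chromosome 18 is highest at 11.4% and chromosome 21 lowest at 8.15%, and on 21 of 23 the interval crosses the dashed line.

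In windows of 100 kb, crowded stretches held a smaller share of strong peaks over all. This order turned when peaks were split by step. Strong peaks made up 11.4% (9.96 to 13.0) of ADAR2-only peaks that were alone in their window, 11.1% (10.4 to 11.8) in windows of 2 to 4, 10.1% (9.61 to 10.5) in windows of 5 to 9, 9.69% (9.34 to 10.0) in windows of 10 to 19 and 8.63% (8.22 to 9.06) in windows of 20 to 49. In windows of 50 or more, with 495 peaks, it was 8.89% (6.69 to 11.7). Windows of 20 or more held 21.99% (21.04 to 22.98) of all strong and 25.03% (24.7 to 25.4) of all remaining peaks. On a whole-number step in both libraries they held 16.8% (15.7 to 17.9) of the strong and 14.7% (14.03 to 15.5) of the remaining peaks. Off it they held 32.02% (30.2 to 33.9) and 26.7% (26.3 to 27.1). The classes are drawn from the values that chose the strong peaks, so this turn is a description. On the steps the median lower value was 2.38 for strong and 1.07 for remaining peaks. Of 9691 windows with an ADAR2-only peak, 4174 held a strong one, 43.1% (42.1 to 44.1). In 2506 of those it was the only one, and 110 windows held 5 or more.

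The windows with most strong peaks held 10 each. At chr7:45000001-45100000, 10 of 20 ADAR2-only peaks were strong, and the median over all 20 was 2.17. The interval of that share, 29.9% to 70.1%, does not allow for the picking of the window by its count. At chr11:134000001-134100000, 10 of 35 were strong. Windows with 9 lay at chr7:99000001-99100000 (9 of 32), at chr2:134900001-135000000 (9 of 35) and at chr3:184000001-184100000 (9 of 61). The last of these held most peaks of all kinds, with 14 shared and 9 SRSF9-only peaks beside the ADAR2-only ones.

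A further 6 windows held 8 strong peaks. The 5 of them with the highest share were at chr12:88500001-88600000 (8 of 19), chr2:54100001-54200000 (8 of 25), chr19:54600001-54700000 (8 of 26), chr19:50100001-50200000 (8 of 33) and chr1:155200001-155300000 (8 of 43). Together these 10 windows held 87 strong peaks among 329 ADAR2-only peaks, 32 shared and 21 SRSF9-only peaks. They were picked for their count, so that share is no result. At the other end, 43 ADAR2-only peaks at chr4:20300001-20400000 and 42 at chr17:80000001-80100000 included 0 strong ones. These windows were likewise picked for their counts, out of 9691 windows. Their upper Wilson bounds of 8.20% and 8.38% do not allow for that and are no result.

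**Figure D5:**
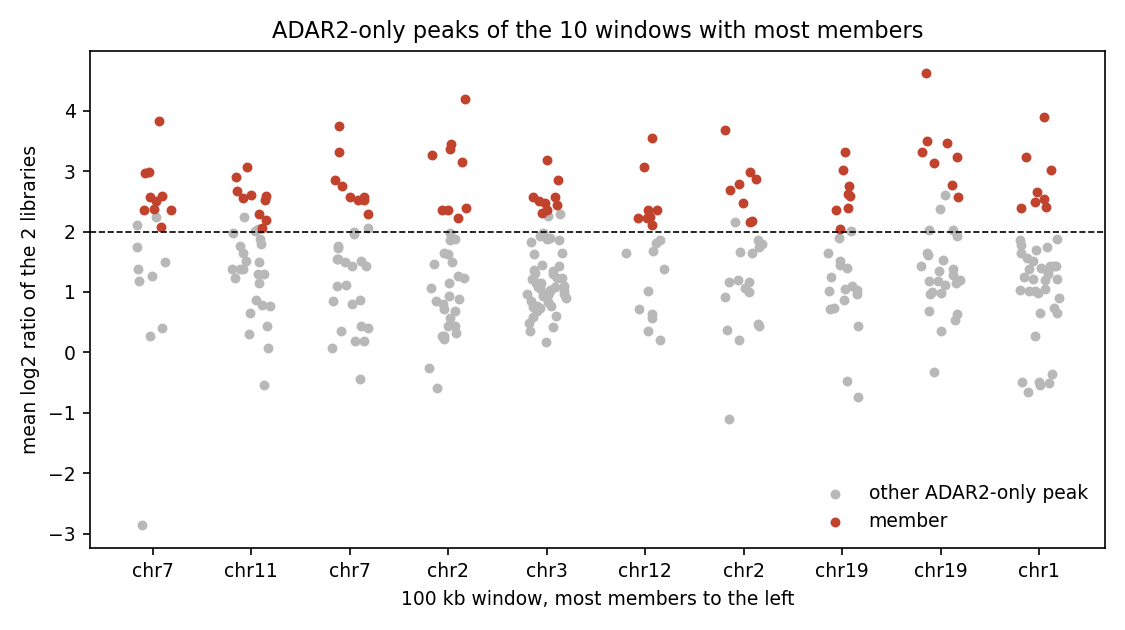
Mean log2 ratio of the libraries with ADAR2 for each ADAR2-only peak of the 10 windows of 100 kb with most strong peaks (red, strong; grey, remaining; dashed, 2), with points spread sideways for legibility. Weak and strong peaks stand side by side in each window, and on chromosome 7, at the left, 10 of 20 peaks are strong and 1 lies at -2.86.

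In the chromosome 7 window the strong peaks formed groups. From 45022748 to 45023632 there were 4 strong peaks, with 2.95 and 3.02, 2.27 and 2.48, 2.54 and 2.59, and 2.65 and 2.37 in the first and second library. From 45025271 to 45026225 there were 5, of which the highest, from 45025997 to 45026070, had 4.42 and 3.25 and the lowest, from 45026132 to 45026225, had 2.096 and 2.06. Between these groups a peak from 45025014 to 45025101 had -2.77 and -2.96, and one from 45025199 to 45025205 had 1.46 and 1.54. Intervals of this region thus stood far above and far below 0 in both libraries. No strand is given, so whether these intervals lie on the same RNA is unknown.

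Joined within 1 kb, the 6984 strong peaks formed 6510 clusters. Of these 6094 were single peaks, 373 held 2, 34 held 3, 3 held 4 and 6 held 5. Among the 33 neighbouring pairs within the 9 clusters of 4 or 5 peaks, 5 shared a value in a library. At chr6:79787168-79787932 the cluster of 5 held 3.34 and 2.28, 3.53 and 4.15, 2.53 and 2.52, 2.98 and 2.06, and 2.77 and 2.06. At chr1:228288704-228290815 the 5 peaks ran from 2.14 and 2.06 to 4.10 and 3.15. At chrX:153196861-153197716 and at chr19:50168010-50168662 all 5 ADAR2-only peaks inside the cluster were strong. The same held for the cluster at chr7:45025271-45026225. The last cluster of 5 lay at chr1:44441353-44443845, with 8 ADAR2-only peaks inside it. The first library was above the second in 60.6% (59.5 to 61.8) of all strong peaks. That share includes peaks on the same step in both libraries, since the step constant is 0.069 in the first and 0.06 in the second. The step of 4 in both held 534 such peaks, that of 5 held 245 and that of 6 held 103. Among the commonest unequal pairs, 376 peaks stood on steps 4 and 5 and 340 on steps 5 and 4. The opposite lean was seen for steps 6 and 4 against 4 and 6, with 216 and 207 peaks. It was also seen for steps 6 and 5 against 5 and 6, with 164 and 153. Steps 7 and 4 and steps 4 and 7 held 118 each. Over all ADAR2-only peaks the medians were 1.13 in the first library and 1.06 in the second. Because of the equal steps, the share alone does not measure a difference in level between the libraries, which was not tested.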

How the data were processed

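SRSF9 eCLIP was deposited as 1 peak table for the series, without header, strand, gene, sequence or read count. Its values are log2 ratios per peak and library made by the authors, with no stated denominator, and 0 stands where a peak is absent in a condition. The build is hg19 per the submitters' processing notes. No source used here names the aligner or the peak caller, or says how replicates were handled (not given in the sources used here). Column pairs were tied to conditions by the class given in each row.

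Distances, widths, windows and steps were computed with Python 3.11.15, pandas 2.3.3 and scipy 1.17.1. The step constant was the one that put most ADAR2-only values on log2 of a whole number within rounding. The method was tested on simulated data with denominators of 1, 2 and 3 only. The classes with larger denominators, or with none up to 10, were not covered by that test. Shares carry 95% Wilson intervals and medians binomial order-statistic intervals. No hypothesis test was made, because the table holds 1 peak set per condition.

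Peaks named are the 10 highest by lower value, the 5 widest, the 3 on each side of the threshold, the 5 nearest to an SRSF9-only peak and the 10 windows with most members. The clusters, the windows with 0 strong peaks and the peaks with the largest disagreement were chosen after their values were seen. The members and lists were chosen with earlier results of these data known. Gene lists, transcript regions and motifs were planned but not analysed here: the annotation at hand is on GRCh38, and on 15 of 25 chromosomes the last peak lies beyond its last gene.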

Additional observations from a re-analysis of the deposited data

How the results depend on the processing

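The number of strong peaks depends on the threshold. It was 16341 above 1.5 in both libraries, 519 above 3, 4176 above 2.1 and 10940 by the mean of the libraries, against 6984. By 1 library alone it was 11781 to 13363. The median width of 38 nt became 35, 47, 43 and 36 nt in the same order, and 35 to 36 nt by 1 library alone. It was 34 nt on a whole-number step in both libraries and 48 nt off it. The share with a peak listed without ADAR2 within 1 kb was 8.99%. It was 13.7% above 3, 11.6% above 2.1, 7.91% to 10.99% by 1 library alone, and 5.27% and 16.1% on and off the steps. Within 100 nt it was 1.89% and within 10 kb 28.1%. The share with another strong peak within 1 kb was 12.7%. It became 20.9% above 1.5, 4.62% above 3, 11.2% above 2.1, 18.0% by the mean, 16.4% to 23.8% by 1 library alone, and 10.1% with identical-valued neighbours within 100 nt counted once. Within 100 nt it was 4.52% and within 10 kb 36.6%. It also moves with the number of peaks chosen. Centring each library on its median kept 6960 of the 6984 peaks among 7051. Merging overlapping rows, and joining peaks within 1 kb (6510 left), moved no other value beyond its interval. The threshold of 2.1, the split by steps and the count of identical values were chosen after seeing the data. Shares by transcript region and by motif were not computed. Depth is unknown, and the coarse steps limit the precision of every value. No paired analysis was possible because the columns carry no replicate number and no test was made.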
